A study of Homo sapiens with 6 samples.

Results

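UCHL1 and the other ubiquitin C-terminal hydrolases were followed in SUM159, an established line from a human breast carcinoma of the triple-negative kind, after exposure to decitabine. Members were the array features whose platform annotation gives UCHL1, UCHL3, UCHL5 or BAP1 as the single symbol. Of these 4 genes, 3 had such a feature, each with 1, among 14884 genes with a named feature on the array; BAP1 was not analysed here. The feature of UCHL5 is annotated to a noncoding RefSeq transcript of that gene, whereas those of UCHL1 and UCHL3 are annotated to messenger RNAs.

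The family was selected on the change of UCHL1 under decitabine, the difference between the group means in this contrast. Its values in this contrast are therefore given as a description, with no p-value, and so are those of its relatives. Genes outside the family were tested, and a call is from a fit that ignores the replicate numbers unless the replicate block is named.

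The decitabine group was 3 samples of SUM159 cells kept for 72 h with 1 µM of the drug, the medium being renewed each day. The untreated group was 3 samples of the same line after 72 h in medium that the labels call NT, without saying whether it held the solvent of the drug. The titles of the untreated samples carry the 1 µM dose as well, which was not taken as a treatment, since the treatment label and the descriptions give none. All cells grew in serum with insulin and hydrocortisone, and total RNA was labelled with biotin for single-colour arrays. The titles number the samples of each group 1 to 3, and nothing says that these were separate cultures. The p-values thus cover the scatter among these samples alone, part or all of which may be technical. The deposited values were read as log2, so each difference and fold rests on that reading.

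Ubiquitin C-terminal hydrolases (UCH) are cysteine proteases that cut short peptides and other small adducts from the C-terminus of ubiquitin. UCHL1, also known as PGP9.5, is abundant in neurons and germ cells, and hypermethylation of its promoter has been described in several kinds of tumour, while other tumours express it strongly. UCHL3 removes small adducts from ubiquitin and from the ubiquitin-like protein NEDD8, UCHL5 (UCH37) works on the proteasome and in the INO80 chromatin remodelling complex, and BAP1 removes ubiquitin from histone H2A. Decitabine is an analogue of deoxycytidine that cells incorporate into DNA, where it binds DNA methyltransferases covalently, so that methylation at CpG sites is lost as cells divide.

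Because the drug acts on CpG sites, the promoters of the 3 measured genes are shown with their CpG sites in capitals. Each is the first window listed for its gene by RefSeq (GRCh38.p14), from 250 bases before to 50 after the transcription start, 5′ to 3′ in the direction of transcription. UCHL1 is at chr4:41256678-41256977 on the plus strand, UCHL3 at chr13:75549252-75549551 on the plus strand and UCHL5 at chr1:193059311-193059610 on the minus strand.
UCHL1: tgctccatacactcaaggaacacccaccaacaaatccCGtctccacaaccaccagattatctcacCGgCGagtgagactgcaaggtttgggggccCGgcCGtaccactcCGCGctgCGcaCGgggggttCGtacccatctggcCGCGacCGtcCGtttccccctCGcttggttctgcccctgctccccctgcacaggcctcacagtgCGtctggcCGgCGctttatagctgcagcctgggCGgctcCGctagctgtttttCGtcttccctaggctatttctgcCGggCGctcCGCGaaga
UCHL3: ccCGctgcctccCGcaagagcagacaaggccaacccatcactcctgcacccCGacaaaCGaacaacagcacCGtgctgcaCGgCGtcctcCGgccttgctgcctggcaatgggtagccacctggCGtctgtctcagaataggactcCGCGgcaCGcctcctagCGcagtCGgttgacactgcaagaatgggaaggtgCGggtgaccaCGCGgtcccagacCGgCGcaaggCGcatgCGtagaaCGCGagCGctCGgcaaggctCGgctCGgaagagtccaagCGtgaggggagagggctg
UCHL5: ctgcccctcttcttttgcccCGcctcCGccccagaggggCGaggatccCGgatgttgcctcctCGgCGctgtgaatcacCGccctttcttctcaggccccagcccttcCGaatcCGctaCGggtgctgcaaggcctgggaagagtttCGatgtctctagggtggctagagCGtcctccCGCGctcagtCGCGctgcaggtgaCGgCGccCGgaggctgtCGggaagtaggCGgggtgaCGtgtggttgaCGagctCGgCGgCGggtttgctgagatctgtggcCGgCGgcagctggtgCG

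The UCHL1 window held 25 CpG sites in 300 bases, a count reached by 32% of the 35116 RefSeq promoter windows of that length, whose median was 14. The UCHL3 window held 28 and the UCHL5 window 29, counts reached by 26.2% and 24.2% of windows. RefSeq lists 1 further window for UCHL3, with 24 CpG sites, and for UCHL5 another pair, with 17 and 24. All 3 windows shown hold more CpG sites than the median window, and that of UCHL1 holds the fewest of the 3. The further windows of UCHL3 and UCHL5 all hold fewer than that of UCHL1, so this order depends on the window taken. The reference does not show which sites carried methyl groups in SUM159, and methylation was not measured here.

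The UCHL1 window also held the letters GGGCGG, the core of the GC box bound by Sp1, at 1 place over both strands; the motif contains a CpG, and 45% of all windows hold it. GGGCGG was at 0 places in the UCHL3 window shown and at 2 in that of UCHL5. The further UCHL3 window held it at 2 places, and those of UCHL5 at 0 and 2. The letters TATAAA, on either strand, were at 1 place in the UCHL1 window and at 0 in the other windows shown, against 11.5% of all windows that hold them. The UCHL1 window is, read on the opposite strand, also the promoter window of UCHL1-DT, a long noncoding RNA transcribed away from UCHL1. UCHL1-DT had no named feature and was not analysed here.

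UCHL1 (Entrez Gene 7345) was higher in decitabine than in untreated cells on every array. It measured 5.76, 5.37 and 5.97 on the log2 scale in decitabine replicates 1, 2 and 3, against 3.20, 2.29 and 3.28 in untreated replicates 1, 2 and 3. The groups did not overlap, and 2.09 lay between the lowest decitabine and the highest untreated array. Replicate 2 was the lowest array within both groups. More cells with the transcript and more transcript per cell cannot be told apart in such bulk RNA.

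The means of UCHL1 were 5.70 ± 0.30 in decitabine cells and 2.92 ± 0.55 in untreated cells (SD, n = 3 per group), a difference of 2.78 (SE 0.31 from the fit over all genes), or 6.85-fold. Between arrays of the same replicate number the difference was 2.56, 3.08 and 2.69, which is 5.90-fold to 8.46-fold. With the replicate number as a block the SE was 0.15. Ordered by size of rise among the 14884 genes, UCHL1 stood at place 40, so that 0.262% of genes had a larger difference. No measure of background was used, so how far UCHL1 stood above background in untreated cells is unknown.

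UCHL3 (7347) lay within a narrow span on all arrays. It measured 9.23, 9.23 and 9.06 in decitabine replicates 1, 2 and 3, against 8.86, 8.96 and 8.97 in untreated replicates 1, 2 and 3. Every decitabine value was above every untreated value, by 0.09 at the nearest, and 22.2% of genes had a larger difference in the same direction. The means were 9.17 ± 0.10 in decitabine cells and 8.93 ± 0.06 in untreated cells (SD, n = 3 per group), a difference of 0.24 (SE 0.19), or 1.18-fold. In the same-numbered pairs it was 0.37, 0.27 and 0.09.

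UCHL5 (51377) followed the replicate number more closely than the treatment. It measured 6.93, 7.37 and 6.74 in decitabine replicates 1, 2 and 3, against 6.98, 7.31 and 6.66 in untreated replicates 1, 2 and 3. Replicate 2 was the highest array and replicate 3 the lowest within both groups, and the groups overlapped. The means were 7.01 ± 0.32 in decitabine cells and 6.98 ± 0.33 in untreated cells (SD, n = 3 per group), a difference of 0.03 (SE 0.26). The pairs gave -0.05, 0.06 and 0.08, a smaller spread than that among the arrays of either group. The sign of so small a difference turned with the arrays kept, from -0.15 without decitabine replicate 2 and -0.13 without untreated replicate 3 to 0.19 at the highest when a single array was left out.

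**Figure D1:**
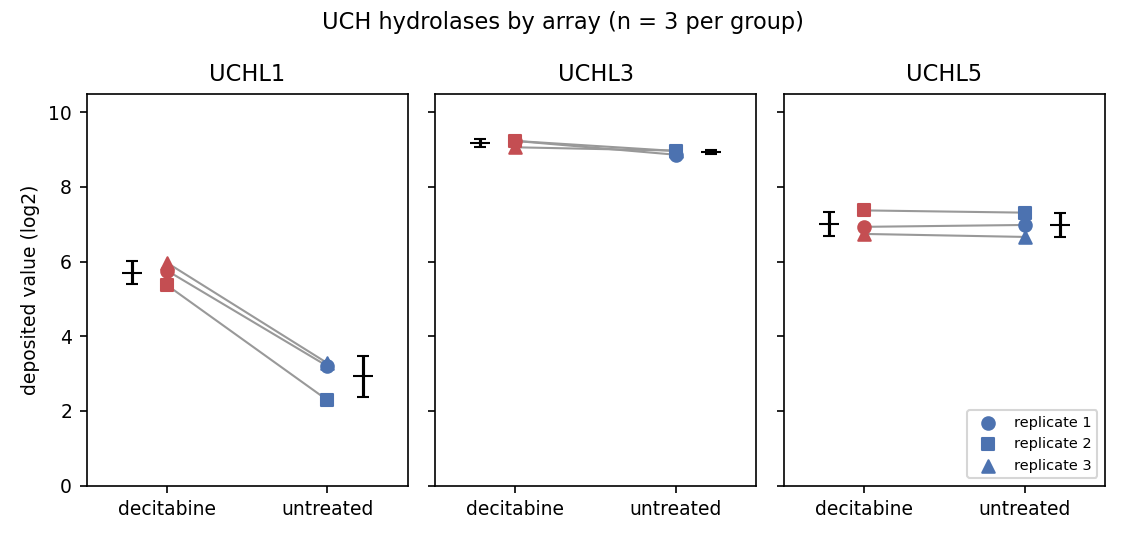
Deposited log2 values of UCHL1, UCHL3 and UCHL5 on each array, decitabine left and untreated right in each panel; a grey line joins arrays of the same replicate number, and the black bars beside the points are the mean and SD (n = 3 per group). The UCHL1 arrays of the groups lie 2.09 or more apart, the UCHL3 groups 0.09 or more, and the UCHL5 groups overlap.

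Set against its relatives, the difference of UCHL1 exceeded the mean difference of UCHL3 and UCHL5 by 2.40, 2.92 and 2.61 on the log2 scale in pairs 1, 2 and 3, a mean of 2.64 ± 0.26 (SD, n = 3 pairs). The mean of these relatives changed by 0.16, 0.17 and 0.09 in the pairs. In the fit across all genes UCHL1 was the single member of the 3 past an adjusted p of 0.05, where 3.03% of genes were past it, and in the fit with the replicate block it was again the single member, where 13.2% were. The groups did not overlap for 2 of the 3 members, UCHL1 and UCHL3, and for 20.1% of all genes (decitabine higher in 11.3%, lower in 8.74%). Nothing is read from these counts, since this contrast chose the family. Without both arrays of replicate 1, which had higher medians over all features than the other arrays, the differences were 2.89 for UCHL1, 0.18 for UCHL3 and 0.07 for UCHL5.

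**Figure D2:**
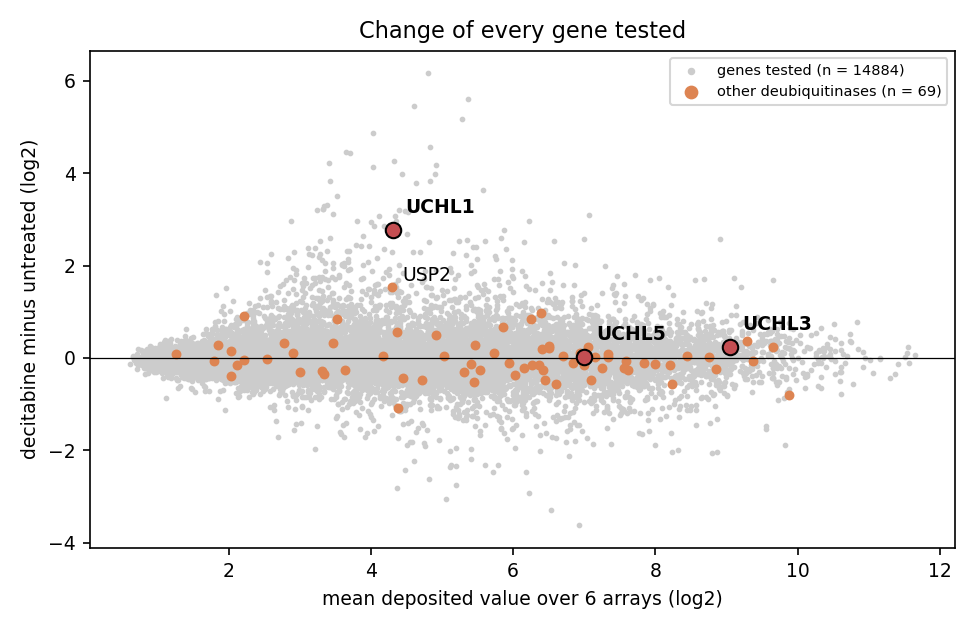
Difference between decitabine and untreated means (log2, vertical axis) against the mean over the 6 arrays (log2, horizontal axis) for 14884 genes in grey, with 69 deubiquitinases of other families in orange and the 3 UCH genes in red. UCHL1 lies at 2.78, with 0.262% of genes at a larger difference, and UCHL3 (0.24) and UCHL5 (0.03) lie inside the grey band around 0.

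Among deubiquitinases of the other families, USP2 was the single gene that rose in the fit without the replicate block. USP2 is a ubiquitin-specific protease known for acting on the p53 ligase MDM2 and on cyclin D1. Of 94 genes of the USP, OTU, Josephin, JAMM, MINDY and ZUP1 families, 69 were measured, of which 1 rose, none fell and 68 did not pass the test (limma, Benjamini-Hochberg adjusted p under 0.05 over all genes), against 2.01% of all genes that rose and 1.02% that fell. At an unadjusted p under 0.05, 14 passed, beside 13.9% of all genes. Their median difference was -0.07, beside -0.02 over all genes, and 56 of the 69 differed by less than 0.5 in either direction. No other deubiquitinase of the 72 measured had a difference as large as that of UCHL1: theirs ran from -1.08 for PAN2 to 1.53 for USP2. Nothing is read from the place of UCHL1, which was chosen on this difference.

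USP2 measured 5.30, 4.89 and 4.98 in decitabine replicates 1, 2 and 3, against 3.63, 3.50 and 3.45 in untreated replicates 1, 2 and 3. The groups did not overlap, and USP2 rose by 1.53 (SE 0.21, limma adjusted p = 0.00845). The adjusted p was 0.0545 without untreated replicate 2. USP2 has a second, dimmer feature, which differed by 0.46 (SE 0.30), and with the mean of both features the gene did not pass (difference 1.00, adjusted p = 0.081).

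With the replicate number as a block, 7 of the 69 deubiquitinases rose and 4 fell, where 7.79% of all genes rose and 5.37% fell. Besides USP2, those that rose were named after their values were seen: USP46, USP26, USP37, OTUD6A, USP28 and OTUD3. Their differences were 0.57 for OTUD3 to 0.98 for USP46, with block adjusted p-values from limma of 0.00861 to 0.0439. The groups of USP26 overlapped, and its values were low, with means of 2.67 in decitabine cells and 1.77 in untreated cells. USP37 is known for removing ubiquitin from cyclin A, and USP28 for stabilising MYC. The 4 that fell were PAN2, a deadenylase subunit whose protease-like domain is inactive, USP53, USP25 and STAMBPL1, an enzyme specific for K63-linked chains. They differed by -1.08 (PAN2), -0.80 (USP53), -0.57 (USP25) and -0.55 (STAMBPL1), with block adjusted p-values from limma of 0.0130 to 0.0441.

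**Figure D3:**
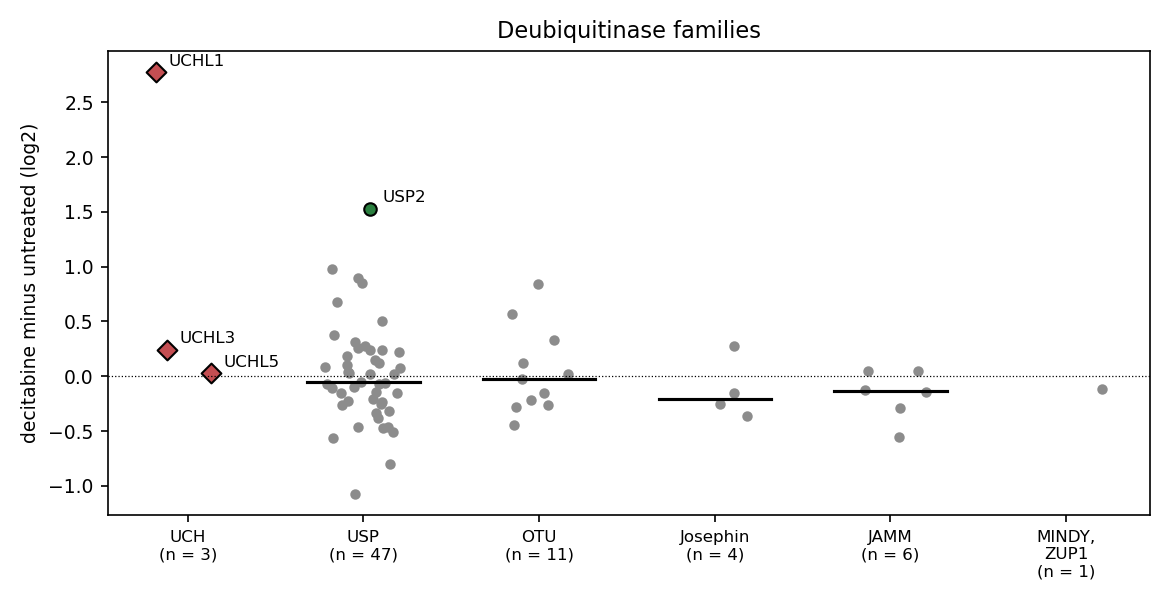
Difference between decitabine and untreated means (log2) of each measured deubiquitinase by family: red diamonds are the UCH genes, green a tested gene that rose, grey those not past the threshold, and horizontal bars family medians where there are over 3 genes (points are spread sideways to be seen). The other families centre near 0, with medians of -0.21 (Josephin) to -0.02 (OTU), and USP2 at 1.53 stands highest among them. Green and grey are from the fit without the replicate block.

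Ubiquitin is made as head-to-tail repeats or as fusions with ribosomal proteins, which hydrolases cut into single units. Of the 5 genes of ubiquitin and NEDD8 precursors only UBB, which encodes a ubiquitin repeat, had a named feature. UBB measured 3.77, 3.97 and 3.59 in decitabine replicates 1, 2 and 3, against 3.22, 3.21 and 2.72 in untreated replicates 1, 2 and 3. The groups did not overlap, with decitabine higher, as in 11.3% of all genes. The difference of 0.73 (SE 0.23) did not pass the test (limma adjusted p = 0.169), but did so with the replicate block (limma adjusted p = 0.0204). The feature was dim, beside array medians over all features of 2.29 to 3.03, and the filter on dim genes dropped it. Whether so dim a feature reports the UBB transcript was not tested.

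Among 26 measured genes of ubiquitin activation and conjugation (E1 and E2 enzymes), 1 rose and none fell. Across all genes 2.01% rose and 1.02% fell. At an unadjusted p under 0.05 by limma, 2 of the 26 passed, beside 13.9% of all genes. The gene that rose was UBE2T, the E2 that joins ubiquitin to FANCD2 in repair of DNA crosslinks. UBE2T measured 8.57, 8.49 and 8.55 in decitabine replicates 1, 2 and 3, against 7.79, 7.38 and 7.03 in untreated replicates 1, 2 and 3. It rose by 1.14 (SE 0.24, limma adjusted p = 0.0489), with adjusted p-values of 0.130 to 0.197 when decitabine replicate 1, 2 or 3 or untreated replicate 2 or 3 was left out. The list had a median difference of 0.10, and with the block UBE2H, an E2 named after its values were seen, also changed, by -0.54 (limma adjusted p = 0.0467).

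The NEDD8 pathway, whose modifier UCHL3 can process, had no gene past the test by limma among 14 measured, with 4 at an unadjusted p under 0.05 (13.9% of all genes) and a median difference of 0.17. COPS8, a subunit of the COP9 signalosome that removes NEDD8 from cullins, differed by 0.62 (SE 0.21, limma adjusted p = 0.198), and UBA3, a subunit of the enzyme that activates NEDD8, by 0.59 (SE 0.20, adjusted p = 0.202). Both rose with the replicate block (limma adjusted p = 0.0252 and 0.0336), where 7.79% of all genes rose. None of the other 12 measured genes of that list passed with the block.

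Partners of UCHL5 were read from the proteasome and the INO80 complex. Of 50 proteasome genes 4 were measured, and none passed by limma, where 3.03% of all genes did. The count was 0 at an unadjusted p under 0.05 (13.9% of all genes) and 0 with the block (13.2%). With 4 genes, these counts say little about the proteasome. ADRM1, the proteasome subunit that binds and activates UCHL5, measured 5.87, 5.46 and 5.83 in decitabine replicates 1, 2 and 3, against 6.10, 5.42 and 5.80 in untreated replicates 1, 2 and 3, so the groups overlapped. The proteasome maturation factor POMP differed by 0.35 (SE 0.19, limma adjusted p = 0.503) and SEM1, a small subunit of the regulatory particle, by 0.27 (SE 0.19, adjusted p = 0.716).

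All 14 listed genes of the INO80 complex were measured, and none passed by limma, with 5 at an unadjusted p under 0.05 (13.9% of all genes) and a median difference of 0.20. INO80C measured 6.03, 6.34 and 5.94 in decitabine replicates 1, 2 and 3, against 5.30, 5.24 and 4.95 in untreated replicates 1, 2 and 3, a difference of 0.94 (SE 0.21, limma adjusted p = 0.0629). ACTR5, an actin-related subunit, differed by 0.68 (SE 0.22, adjusted p = 0.174), and NFRKB, the subunit that holds UCHL5 in the complex, by 0.63 (SE 0.19, adjusted p = 0.149). With the block these 3 genes rose (limma adjusted p of 0.0106 to 0.0312), and the ATPase INO80 itself changed by -0.62 (adjusted p = 0.0452). Across all genes 7.79% rose and 5.37% fell with the block.

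For BAP1, which had no named feature, the partners and the opposing ligase were measured. Among 11 measured partners none passed by limma, 1 had an unadjusted p under 0.05 (13.9% of all genes), and the median difference was 0.19. That gene was KDM1B, a histone demethylase that binds the complex, with 7.94, 8.23 and 8.18 in decitabine replicates 1, 2 and 3, against 6.08, 6.84 and 7.35 in untreated replicates 1, 2 and 3. The difference of 1.36 (SE 0.32) had a limma adjusted p of 0.0713, and 0.0133 with the block. ASXL1, the cofactor that activates BAP1, differed by 0.37 (SE 0.19, limma adjusted p = 0.487).

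Of 13 measured genes of Polycomb repressive complex 1, which adds to histone H2A the ubiquitin that BAP1 removes, none passed by limma and 4 had an unadjusted p under 0.05 (13.9% of all genes). The median difference was -0.08. The polyhomeotic subunits PHC1 and PHC2 had the most negative values. PHC1 measured 5.08, 5.03 and 4.90 in decitabine replicates 1, 2 and 3, against 5.81, 5.85 and 6.04 in untreated replicates 1, 2 and 3, a difference of -0.90 (SE 0.19, limma adjusted p = 0.0517), and PHC2 differed by -0.85 (SE 0.21, adjusted p = 0.0814). With the block both fell (limma adjusted p = 0.0135 and 0.0163), and PCGF6, named after its values were seen, rose by 0.67 (adjusted p = 0.0343). The block gave 7.79% of all genes as risen and 5.37% as fallen.

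**Figure D4:**
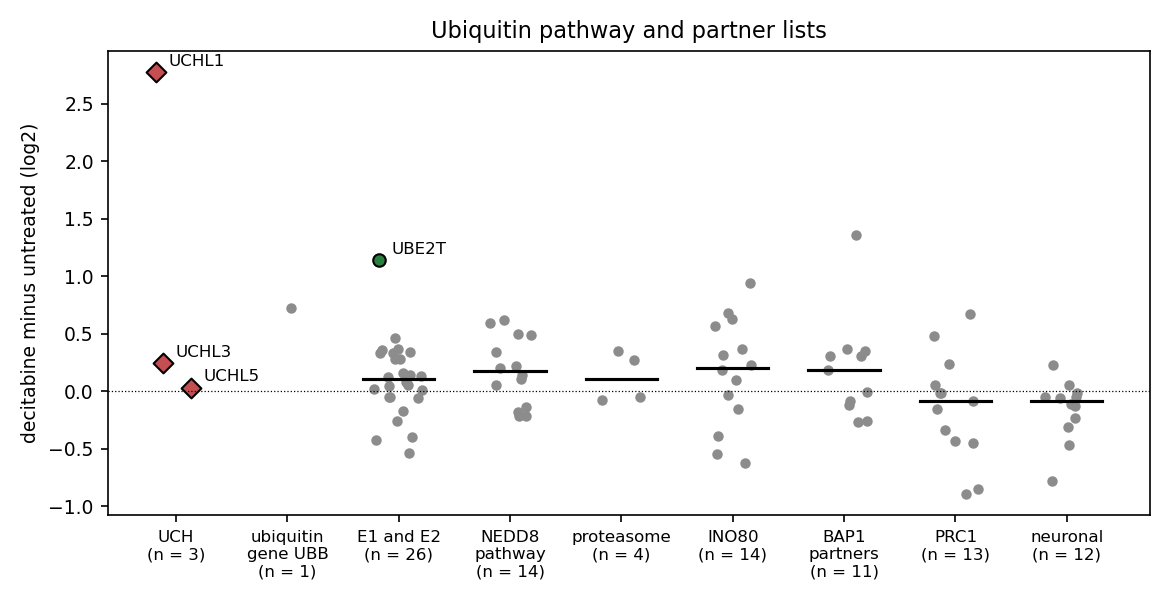
Difference between decitabine and untreated means (log2) of each measured gene of the ubiquitin pathway and partner lists and of neuronal markers, beside the UCH genes (red diamonds); green is a tested gene that rose, grey those not past the threshold, and bars are medians where there are over 3 genes (points are spread sideways to be seen). Green and grey are from the fit without the replicate block, where UBE2T at 1.14 is the single listed gene past the threshold. The tested lists of more than 1 gene all have points on both sides of 0.

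UCHL1 serves as a marker of neurons and neuroendocrine cells, so other such markers were read beside it. Of 24 listed, 12 were measured, and none passed by limma, where 3.03% of all genes did. The count was 0 at an unadjusted p under 0.05 (13.9% of all genes) and 0 with the block (13.2%), and the median difference was -0.09. So few genes could give 0 at these shares. Some had low values, such as SCG3, which averaged 1.15 in decitabine cells and 1.20 in untreated cells. MAP2, a dendritic microtubule protein, measured 5.21, 5.78 and 5.47 in decitabine replicates 1, 2 and 3, against 5.50, 6.54 and 6.77 in untreated replicates 1, 2 and 3. The groups overlapped, and the difference of -0.78 (SE 0.35) had a limma adjusted p of 0.379. The synaptic vesicle protein SYT1 differed by -0.47 (SE 0.21, adjusted p = 0.401), and the neuroendocrine granule proteins CHGA and CHGB, named after their values were seen, by -0.02 and 0.23.

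Of 7 proteins reported as UCHL1 substrates or clients, SMAD2 and SMAD3, which carry the TGF-beta signal to the nucleus, had a named feature. The arrays measure their transcripts, not the proteins on which the enzyme acts. SMAD2 measured 8.0, 8.54 and 8.27 in decitabine replicates 1, 2 and 3, against 8.39, 9.02 and 8.87 in untreated replicates 1, 2 and 3. The groups overlapped, though each decitabine array was lower than the untreated array of its number, and the difference of -0.49 (SE 0.25) had a limma adjusted p of 0.478. SMAD3 differed by 0.26 (SE 0.28, adjusted p = 0.910). Neither passed with the block (13.2% of all genes), and at an unadjusted p under 0.05 the count was 0 (13.9% of all genes). Nothing is read from these counts, with 2 genes measured.

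Markers of the line itself were also read, since SUM159 is known as a mesenchymal-like line without hormone receptors. Of 15 listed, 12 were measured, and none passed by limma, with 2 at an unadjusted p under 0.05 (13.9% of all genes) and a median difference of -0.04. The epithelial adhesion protein EPCAM measured 4.37, 4.12 and 3.63 in decitabine replicates 1, 2 and 3, against 3.51, 2.77 and 2.55 in untreated replicates 1, 2 and 3. The groups did not overlap, and the difference of 1.10 (SE 0.31) had a limma adjusted p of 0.127, and 0.00829 with the block. Vimentin, VIM, the mesenchymal intermediate filament protein, averaged 8.81 ± 0.16 in decitabine cells and 9.36 ± 0.29 in untreated cells (SD, n = 3 per group; limma adjusted p = 0.317). The oestrogen receptor ESR1 averaged 1.86 in decitabine cells and 2.03 in untreated cells, and the progesterone receptor PGR 2.19 in decitabine cells and 1.91 in untreated cells. With the block ZEB1, a mesenchymal transcription factor named after its values were seen, also changed, by -0.51 (limma adjusted p = 0.0438). Among the other mesenchymal markers CD44 differed by 0.27 and SNAI2 by 0.04, and 5 of the 8 measured markers that are usually low in the line had differences below 0. Levels of different features cannot be ranked, so these values do not show which of the markers were absent. Whether a change in the state of the cells has a part in the difference of UCHL1 was not tested.

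Genes with the profile most like that of UCHL1 were named by the root mean square (RMS) difference over the 6 arrays, after the mean of each gene had been subtracted. The nearest was PKP2, plakophilin 2, a desmosomal plaque protein, at an RMS difference of 0.17 on the log2 scale. PKP2 measured 7.36, 7.27 and 7.61 in decitabine replicates 1, 2 and 3, against 5.08, 4.33 and 5.29 in untreated replicates 1, 2 and 3. As for UCHL1, replicate 2 was the lowest and replicate 3 the highest array of each group.

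Next were ANXA3, a calcium-dependent membrane-binding annexin, at 0.29, HERC5, the ligase for the ubiquitin-like modifier ISG15, at 0.30, and ARHGEF26, a guanine nucleotide exchange factor, at 0.30. The antisense RNA ZNF667-AS1 was at 0.31 and the RNA helicase DDX53 at 0.33. Untreated replicate 2 was the lowest array in all 6 genes, as in UCHL1, whereas the order of the decitabine arrays differed among them. Each of the 6, PKP2 included, was picked for likeness to UCHL1 over all 6 arrays. Neither the difference between the groups nor the shared order of arrays within them gives further evidence.

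**Figure D5:**
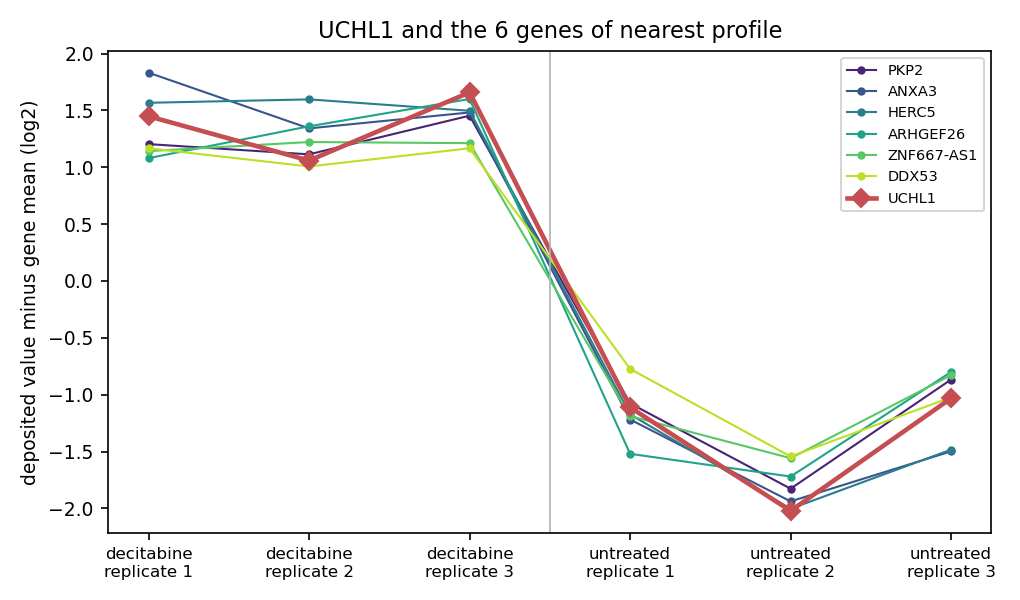
Deposited log2 values minus the mean of each gene over the 6 arrays, for UCHL1 (red diamonds) and the 6 genes with the smallest RMS difference from it; lines join the values of a gene and replicates have no order. All 7 profiles are above their mean on the 3 decitabine arrays and lowest in untreated replicate 2, and PKP2, at an RMS difference of 0.17, lies nearest to UCHL1.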

How the data were processed

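Expression was measured on 6 single-colour arrays of total RNA. Per the submitters' processing notes the authors used the Transcriptome Analysis Console; version, normalization and build were not given in the sources used here. Deposited by the authors, the table holds 48226 features with 2 decimals, and these deposited values were read as log2 expression from their range of 0.17 to 12.89; the log base is not stated. Array medians over all features were 2.98, 2.40 and 2.37 in decitabine replicates 1, 2 and 3 and 3.03, 2.42 and 2.29 in untreated replicates 1, 2 and 3. Precision is limited by the number of arrays.

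The platform annotation gave 16098 features a single symbol, none several and 32128 no name. All 16098 Entrez Gene IDs matched RefSeq (GRCh38.p14), giving 14884 genes; the feature with the highest mean stood for a gene. Groups and replicate numbers came from the titles. Groups were compared with limma 3.58.1 in R 4.3.3 (lmFit, eBayes, two-sided, Benjamini-Hochberg over 14884 genes, threshold 0.05), without covariate; the fit was tested on simulated data. Deviations from group means correlated at 0.682, 0.595 and 0.558 between same-numbered arrays and at -0.006 to -0.483 otherwise, so the title numbers were taken to pair the samples. The main fit leaves this pairing out, and 451 genes passed in it, against 1959 in a fit blocked on that number. Results of the blocked fit are printed where they change a call. Identical deposited values were found for 6.44% to 8.28% of features between same-numbered arrays and 0.417% to 0.834% otherwise. The reason was not tested. Alternatives were quantile normalization, median centring, a filter on dim genes, averaged features, another prior and leaving out arrays.

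Members and the 11 gene lists were chosen with earlier results of these data known. Named genes were the members, measured ubiquitin precursors, list genes past the threshold (otherwise the 2 of largest absolute change) and the 6 of nearest profile; NFRKB, ADRM1, INO80, ESR1 and PGR were added for their roles, and CHGA, CHGB, CD44, SNAI2 and the genes called under the block after their values were seen.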

Additional observations from a re-analysis of the deposited data

How the results depend on the processing

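The differences of UCHL1 and UCHL3 kept their sign under all 13 alternatives and moved by less than the SD pooled over both groups (0.44 and 0.08). When a single array was left out, UCHL1 ranged from 2.46 to 2.96 on the log2 scale, UCHL3 from 0.21 to 0.30, UCHL5 from -0.15 to 0.19, and the excess of UCHL1 over its relatives from 2.23 to 2.91. BAP1 had no value under any setting, and UBB none once the dimmer 50% of genes were dropped. The count of genes past the threshold, 451 as reported, was 1959 with the replicate block and 938 with quantile normalization. It was 989 without the dimmer 50% of genes, 1135 with an intensity trend and robust prior, and 130 to 477 with a single array left out. Leaving out dim genes or arrays also leaves fewer of them in the fit, and the cause of these shifts was not tested. Deubiquitinases past the threshold (1 as reported) were 11 with the replicate block, 4 with quantile normalization, 5 without the dimmer genes and 6 with the trend. They were 0 with averaged features, 2 without both arrays of replicate 1 (added after the data were seen) and 0 to 3 with a single array left out. For activation and conjugation (1 as reported) the count was 2 with the replicate block and 0 to 1 with a single array left out. With the replicate block 13.2% of all genes passed. The lists with 0 as reported then gave 1 of 1 measured gene for ubiquitin precursors, 2 of 14 for the NEDD8 pathway and 4 of 14 for INO80. They gave 1 of 11 for BAP1 partners, 3 of 13 for PRC1 and 2 of 12 for SUM159 markers. Among the genes named, the block changed no call but those printed with a block value. Quantile normalization gave 1 for INO80, 1 for BAP1 partners, 2 for PRC1 and 1 for SUM159 markers; leaving out the dimmer genes gave 3, 1, 2 and 0 for those lists; the trend gave 1, 1, 2 and 1, and 2 for the NEDD8 pathway. Median centring gave 1 for SUM159 markers, averaged features 1 for PRC1, and leaving out a single array 0 to 1 for SUM159 markers. The proteasome, UCHL1 substrate and neuronal lists, with 4, 2 and 12 measured genes, stayed at 0 throughout these alternatives. With 3 arrays per group and no measure of background, signal near background limits what can be said of dim features.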

Other observations

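The genes next to UCHL1 on chromosome 4 were read by their order in the RefSeq table, the nearest 3 with a named feature on each side, a choice made after the data were examined. LIMCH1, an actin-binding protein whose gene follows UCHL1 with 0 listed genes between, averaged 5.77 ± 0.11 in decitabine cells and 5.97 ± 0.22 in untreated cells (SD, n = 3 per group), a difference of -0.20 (SE 0.21, limma adjusted p = 0.894). TMEM33, with 12 genes between, differed by -0.10. DCAF4L1, with 13 genes between, measured 5.46, 5.06 and 4.44 in decitabine replicates 1, 2 and 3, against 2.06, 1.20 and 1.84 in untreated replicates 1, 2 and 3. DCAF4L1 rose by 3.29 (SE 0.33, limma adjusted p = 0.00276), was higher in 3 of 3 pairs, and is related in sequence to DCAF4, a substrate receptor of a cullin ubiquitin ligase.

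On the other side of UCHL1, the microRNA gene MIR4802 differed by 0.17, the RNA-binding protein RBM47 by 0.93 (SE 0.27, limma adjusted p = 0.126, or 0.0499 under the block) and the GTPase RHOH by 0.16. The gene before UCHL3, COMMD6, differed by 0.42 (SE 0.20, limma adjusted p = 0.438), and LMO7, the nearest measured gene after it, by 0.87 (SE 0.22), with a limma adjusted p of 0.0861 that became 0.00914 under the block. GLRX2, the nearest measured gene after UCHL5, differed by -0.48 (SE 0.23, limma adjusted p = 0.422).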
